A study of Mus musculus with 6 samples.

Results

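Ketone body metabolism was followed in brown adipose tissue (BAT) through the genes of 4 enzymes, Oxct1, Acat1, Bdh1 and Bdh2, found by their gene symbols among the 23282 rows of the deposited counts. Each symbol stood on 1 row in every mouse. RNA of the interscapular BAT depot came from 3 wild-type and 3 Letmd1 KO mice, all male, of strain C57BL/6N, untreated as far as the labels say, and 5 weeks of age. The Letmd1 KO mice were homozygous in every tissue for a knockout-first allele, derived from a single ES cell clone, in which a lacZ and neomycin resistance cassette interrupts the gene. Any change in BAT may therefore arise in any cell of the body, and these counts cannot tell in which. In the paper, older mice with Letmd1 deleted in BAT alone also had whitened BAT and less OXPHOS and UCP1 protein. Libraries were made with QuantSeq, a 3′ tag method whose counts do not scale with gene length. Levels are given as CPM (the counts of a gene relative to the library's total, after TMM scaling for differences in RNA composition). Between different genes CPM compare only roughly, as the gene annotation is not given and reads with several alignments were counted. The labels do not say whether mice shared litters or were handled in batches.

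Ketone bodies are small fuels that the liver makes from fatty acids and other tissues burn. In synthesis, ACAT1 (mitochondrial acetoacetyl-CoA thiolase) joins acetyl-CoA units on the way to acetoacetate, and BDH1 reduces acetoacetate to β-hydroxybutyrate in mitochondria. In use, BDH1 runs backwards, OXCT1 activates acetoacetate with the CoA of succinyl-CoA, which is the step that commits ketone bodies to oxidation, and ACAT1 splits acetoacetyl-CoA into acetyl-CoA for the TCA cycle. BDH2 is a cytosolic dehydrogenase that has been linked to ketone use and to iron handling. Brown fat is known to take up and oxidize ketone bodies, while most ketone synthesis takes place in liver.

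Oxct1 lies on chromosome 15 from 4026383 to 4155344 (plus strand), and Acat1 on chromosome 9 from 53580522 to 53610382 (minus strand) in the GENCODE annotation of GRCm38, the build named as mm10 in the submitters' processing notes. Bdh1 spans 31422280 to 31458901 on chromosome 16 (plus strand), and Bdh2 spans 135281221 to 135304426 on chromosome 3 (plus strand). BC037032 on the minus strand shares 467 exonic bases with the start of Oxct1. Its annotated end lies 127939 bases from the 3′ end that QuantSeq reads, and it had between 1 and 16 counts per mouse. The RefSeq table held promoters for 3 of the 4 genes and none for Acat1. The Oxct1 promoter is shown because Oxct1 was the abundant enzyme of the set whose level in the 2 genotypes overlapped. It is chr15:4026178-4026477 of GRCm38.p6, plus strand, with 250 bases before and 50 after the RefSeq start.
Oxct1 promoter: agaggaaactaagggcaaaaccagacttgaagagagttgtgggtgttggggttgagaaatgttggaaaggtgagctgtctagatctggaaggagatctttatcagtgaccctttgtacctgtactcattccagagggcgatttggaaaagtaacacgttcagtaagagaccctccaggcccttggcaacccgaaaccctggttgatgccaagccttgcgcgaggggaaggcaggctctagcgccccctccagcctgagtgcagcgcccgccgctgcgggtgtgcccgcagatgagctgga
The sequence is in lower case throughout because no motif searched, on both strands, was in it. These were the nuclear receptor half-site AAGGTCA (in 4.72% of 32851 promoters of the same length), the ERR response element TCAAGGTCA that contains it (0.423%), the PPAR response element (0.0396%), the amino acid response element core TGATGNAA (3.97%), the cAMP response element TGACGTCA (1.79%) and the NRF1 site (0.971%). The windows of Bdh1 and Bdh2 held none of them either.

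Total counts lay between 6669577 and 14574273 per mouse, so a floor of 3 counts corresponded to between 0.176 and 0.397 CPM. Letmd1 counts were 5658, 6490 and 5266 in wild-type and 0, 0 and 1 in Letmd1 KO BAT, as the labels give the genotypes. Brown adipocyte markers, led by Ucp1, summed to between 12800 and 13910 CPM in wild-type BAT and between 1982 and 3227 CPM in Letmd1 KO BAT, with 7 of 8 lower. General adipocyte markers summed to between 42680 and 47560 CPM in wild-type and between 20530 and 26140 CPM in Letmd1 KO BAT, with 6 of 8 lower (5 lower and 1 higher with library size alone). Macrophage markers were higher for 12 of 12 (between 184 and 261 CPM in wild-type mice, between 1486 and 2637 CPM in Letmd1 KO mice), and fibroblast markers for 8 of 8 (2195 to 2900 and 5967 to 10330 CPM). Schwann cell and nerve markers were higher for 6 of 7 tested (299 to 319 and 424 to 594 CPM, Th at 0 in all mice), and for 4 under quantile normalization. Endothelial markers were lower for 3 of 8 (698 to 776 and 456 to 590 CPM). With library size alone 1 endothelial marker was lower and 1 higher, and under quantile normalization 2 were lower. Of all genes tested, 22.3% were lower and 23.7% higher at an adjusted p under 0.05 (edgeR's quasi-likelihood test). In counts of whole tissue, fewer brown adipocytes and less mRNA per brown adipocyte cannot be told apart.

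Of the abundant enzymes of ketone use, Acat1 was lower in Letmd1 KO BAT and Oxct1 did not pass the test. Acat1, which catalyzes the last step, fell to about the CPM of Oxct1. Oxct1, which catalyzes the committing step, stayed between 409 and 510 CPM in all 6 mice. The dehydrogenase genes Bdh1 and Bdh2 were scarce, with at most 11 and 30 counts in any mouse. Of the 3 genes that could be tested, 1 was lower (Acat1), 1 was higher (Bdh2) and 1 did not pass the threshold (Oxct1). Bdh2 passed the filter on low counts through the 3 Letmd1 KO mice alone, which favored a call as higher. Of all 12995 genes tested, 46.0% passed an adjusted p of 0.05, 22.3% lower and 23.7% higher (edgeR's quasi-likelihood test, p adjusted by Benjamini-Hochberg, unless another tool is named). The share of all genes lower and higher was 10.5% and 45.4% when scaled by library size alone, 23.7% and 20.9% for limma after quantile normalization, 22.4% and 22.7% with DESeq2, 16.4% and 17.9% without a filter, and 20.9% and 22.2% with the replicate number as a block.

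**Figure D1:**
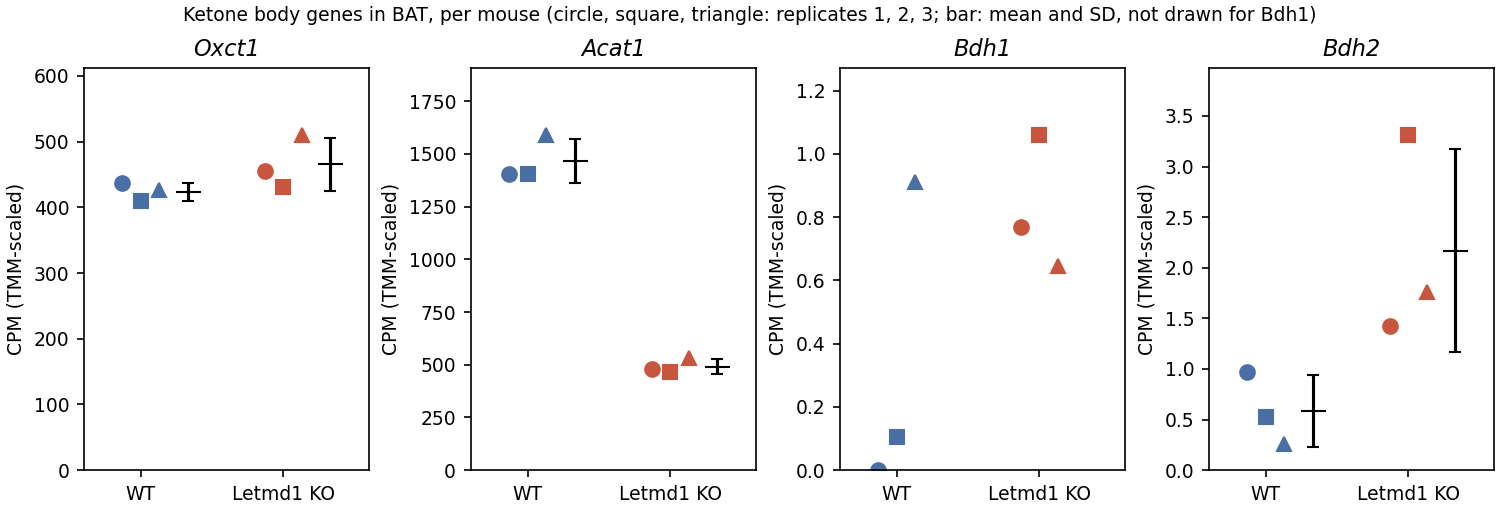
TMM-scaled CPM (y axis, from 0, a different range in each panel) of Oxct1, Acat1, Bdh1 and Bdh2 in each wild-type (WT, blue) and Letmd1 KO (red) mouse, with the mean and SD of 3 mice as a bar except for Bdh1, whose counts include a 0. Circles, squares and triangles are replicates 1, 2 and 3. Acat1 separates the genotypes, Oxct1 does not, and both Bdh genes stay under 4 CPM.

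Acat1 encodes the thiolase that also serves the breakdown of isoleucine. Its counts were 13038, 13266 and 12186 in wild-type and 4348, 3520 and 9013 in Letmd1 KO BAT. These were 1406, 1406 and 1589 CPM in wild-type BAT and 478, 466 and 530 CPM in Letmd1 KO BAT, so the genotypes were far apart and the mice of each genotype close together. The mean was 1467 ± 106 CPM in wild-type and 491 ± 34.2 CPM in Letmd1 KO BAT (SD, n = 3 each), a 2.99-fold lower level. Its log2 fold change was -1.58 (SE 0.12, adjusted p = 1.81e-05). The call held in all 13 alternatives. The smallest change came with quantile normalization, under which Acat1 fell by 0.94 on the log2 scale (limma, adjusted p = 0.000142).

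Oxct1 encodes the CoA transferase of ketone oxidation. It had 437, 409 and 426 CPM in wild-type BAT and 455, 432 and 510 CPM in Letmd1 KO BAT, from between 3261 and 8668 counts per mouse. The ranges overlapped, and Letmd1 KO replicate 3 was the highest of all mice. The mean was 424 ± 13.9 CPM in wild-type and 465.5 ± 40.1 CPM in Letmd1 KO BAT (SD, n = 3 each). Its log2 fold change was 0.14 with a 95% confidence interval from -0.11 to 0.38 (adjusted p = 0.344). The call depended on the scaling. With library size alone Oxct1 was higher in Letmd1 KO BAT (log2 fold change 0.56, adjusted p = 0.00269), on a scale that put the median of all genes at 0.45, and Oxct1 lay 0.10 above that median under both TMM and library size alone. Under quantile normalization Oxct1 was also higher (0.52, limma, adjusted p = 0.00323), and there it lay 0.57 above a median of -0.05.

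Skeletal muscle is a tissue with much OXCT1, and muscle markers differed between the mice. They summed to 10.8, 402 and 8.74 CPM in wild-type and 420, 307 and 1226 CPM in Letmd1 KO BAT, with 2 of 14 higher (10 of 14 under quantile normalization), and Ckm, Tnnt3, Myh2, Myh4, Pvalb and Tcap at 0 in wild-type replicates 1 and 3. Letmd1 KO replicate 3, the highest in muscle markers, was also the highest in Oxct1. Wild-type replicate 2, the only wild-type mouse with many muscle counts, had the lowest Oxct1 level of all mice. Without these 2 mice, a choice made after seeing the data, the log2 fold change was 0.03 for Oxct1 (adjusted p = 0.915) and -1.68 for Acat1 (adjusted p = 0.000611). The mice left still differed by genotype in muscle markers (10.8 and 8.74 CPM in wild-type, 420 and 307 CPM in Letmd1 KO BAT). This fit therefore cannot tell muscle from genotype. The part of skeletal muscle, macrophages and fibroblasts in the levels of Oxct1 and Acat1 was not tested.

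The ratio of the counts of 2 genes within a mouse is the same for any factor that scales a whole library, such as TMM or library size, though not for quantile normalization. For every 100 counts of Acat1, the wild-type mice had 31.1, 29.1 and 26.8 counts of Oxct1, and the Letmd1 KO mice had 95.3, 92.6 and 96.2. The log2 ratio was -1.79 ± 0.11 in wild-type and -0.08 ± 0.03 in Letmd1 KO BAT (SD, n = 3 each), a 3.27-fold difference, with no overlap between the genotypes (two-sided exact permutation test, p = 0.1, the smallest that 3 mice against 3 allow, and 0.15 adjusted over the 6 pairs of the 4 genes). Genes whose own CPM did not overlap between the genotypes made up 57.3% of all genes tested, 27.2% lower and 30.1% higher. Of the other 5 pairs, those of Bdh2 with Oxct1, Bdh2 with Acat1 and Bdh1 with Acat1 did not overlap between the genotypes either (exact permutation p = 0.1 for each, adjusted 0.15), while Bdh1 with Oxct1 (exact permutation p = 0.3, adjusted 0.36) and Bdh1 with Bdh2 (0.8, adjusted 0.8) overlapped. The ratios with Bdh1 or Bdh2 rest on between 0 and 30 counts in the smaller gene.

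**Figure D2:**
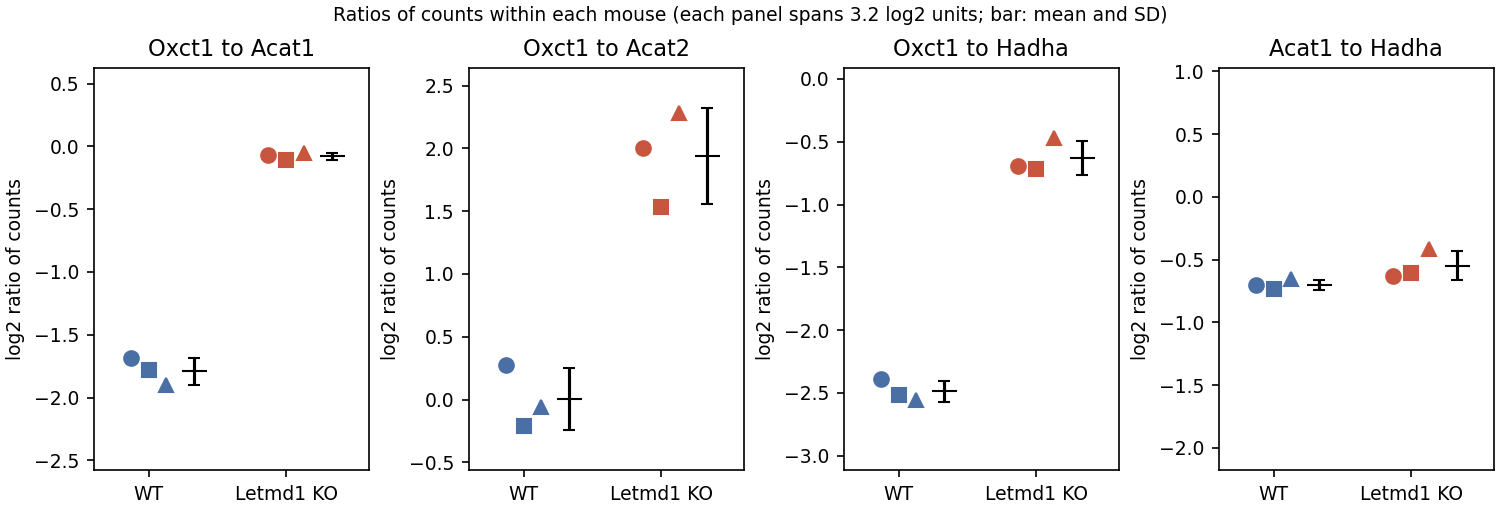
Log2 ratio of the counts of 2 genes (y axis; every panel spans the same number of log2 units) in each wild-type (WT, blue) and Letmd1 KO (red) mouse, with mean and SD of 3 mice. Oxct1 lies higher against Acat1, Acat2 and Hadha, an enzyme of fatty acid oxidation, in all Letmd1 KO mice, while the means of Acat1 to Hadha differ by 0.15. The pairs with Acat2 and with Hadha were chosen after their values were seen.

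The Bdh genes were scarce. Bdh1, the mitochondrial enzyme that interconverts the ketone bodies, had counts of 0, 1 and 7 in wild-type and 7, 8 and 11 in Letmd1 KO BAT, which is between 0 and 1.06 CPM. The ranges overlapped, since wild-type replicate 3 lay above 2 of the Letmd1 KO mice in CPM. Bdh1 did not pass the filter on low counts, and without a filter its log2 fold change was 1.31 with a 95% confidence interval from -0.86 to 3.47 (adjusted p = 0.352). Counts of Bdh2, the cytosolic enzyme, were 9, 5 and 2 in wild-type and 13, 25 and 30 in Letmd1 KO BAT. Its mean was 0.59 ± 0.36 CPM in wild-type and 2.17 ± 1.003 CPM in Letmd1 KO BAT (SD, n = 3 each), and every Letmd1 KO mouse was above every wild-type mouse. The log2 fold change was 1.80 (SE 0.57, adjusted p = 0.0279). Bdh2 passed the filter through the 3 Letmd1 KO mice alone, so that its testing favored a difference in this direction. The call was lost under quantile normalization (0.77, limma, adjusted p = 0.201). It was also lost without both wild-type replicate 2 and Letmd1 KO replicate 3, each the highest of its genotype in muscle markers (1.84, adjusted p = 0.118). Leaving out 1 mouse lost it for wild-type replicate 2 (1.70, adjusted p = 0.0883), wild-type replicate 3 (1.47, 0.0786), Letmd1 KO replicate 2 (1.41, 0.103) or Letmd1 KO replicate 3 (1.94, 0.0527).

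Of the 4 enzymes, ACAT1 and BDH1 serve both synthesis and use, while OXCT1 serves use alone. Acat1 was lower in Letmd1 KO BAT, Oxct1 did not pass the threshold, and Bdh1 had too few counts to pass the filter. Hepatocyte markers, a check for liver RNA, summed to between 10.1 and 14.6 CPM in wild-type and between 1.59 and 5.03 CPM in Letmd1 KO BAT, with Cps1 at 0 in all mice. Of the 2 tested, Apoc3, an apolipoprotein gene, was lower (10.2 ± 1.56 and 1.51 ± 1.44 CPM, SD, n = 3 each, adjusted p = 0.00189). Alb did not pass the threshold (0.76 ± 0.50 and 0.83 ± 0.32 CPM, log2 fold change 0.11, adjusted p = 0.906). Most of the wild-type sum was Apoc3, at 9.81, 8.80 and 11.9 CPM.

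All 4 tested genes of the list of ketone use beside the enzymes above fell, and their median log2 fold change was -1.07, beside 0.03 for all genes. Aacs, the cytosolic enzyme that activates acetoacetate for lipid synthesis, had 159, 199 and 320.1 CPM in wild-type BAT and 33.7, 50.02 and 24.4 CPM in Letmd1 KO BAT. Its mean was 6.28-fold lower in Letmd1 KO BAT, a log2 difference of -2.66 (SE 0.31, adjusted p = 0.000149). The succinyl-CoA ligase genes, whose enzyme shares succinyl-CoA with OXCT1, fell as well, by 1.23 for Suclg1, 0.91 for Suclg2 and 0.88 for Sucla2 on the log2 scale (adjusted p = 0.000214, 0.00015 and 0.00274). Under quantile normalization Suclg1 had -0.46 (limma, adjusted p = 0.0445). The call for Sucla2 was lost under quantile normalization (log2 fold change -0.08, limma, adjusted p = 0.713). Oxct2a and Oxct2b, testis forms of the transferase, had 0 counts in all 6 mice, which allows up to 0.397 CPM in the shallowest library.

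In the cytosol, 2 of 3 genes that handle acetoacetyl-CoA were lower, beside 22.3% of all genes. Acat2, the cytosolic thiolase of sterol synthesis, fell from 426 ± 58.5 to 123 ± 23.6 CPM (SD, n = 3 each), a log2 difference of -1.80 (adjusted p = 3.7e-05). Its relative Acat3 was lower by a log2 difference of -0.30 (adjusted p = 0.037), a call lost in 11 of 13 alternatives, among them library size alone, where the sign turned (0.12), and leaving out any mouse except Letmd1 KO replicate 1 (log2 fold change between -0.33 and -0.26, adjusted p between 0.0603 and 0.101). As reads with several alignments were counted, reads may be shared between Acat2 and Acat3. Hmgcs1, the synthase of sterol synthesis, did not pass the threshold (-0.45, adjusted p = 0.123), and had -0.14 without wild-type replicate 3, -0.03 when scaled by library size and -0.09 under quantile normalization.

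**Figure D3:**
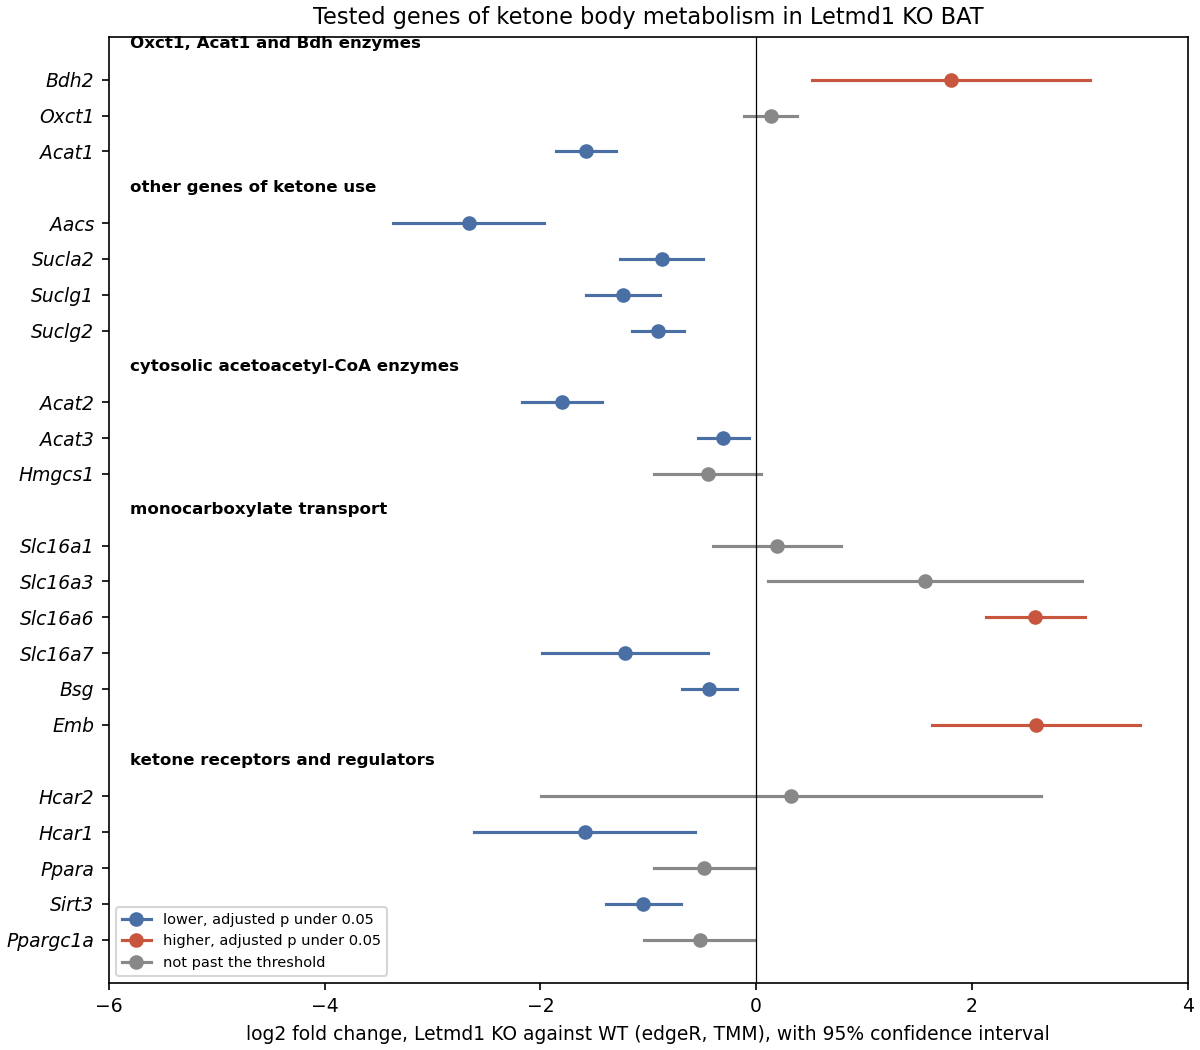
Log2 fold change in Letmd1 KO against wild-type (WT) BAT (x axis, edgeR with TMM) with its 95% confidence interval for each tested gene of ketone body metabolism, grouped by role. Blue points are lower, red points higher and grey points not past an adjusted p of 0.05, with Aacs lowest at -2.66 and Emb and Slc16a6 highest at 2.59.

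Monocarboxylate transporters carry ketone bodies and lactate across membranes. Of 6 genes, 2 were higher, 2 were lower and 2 did not pass the threshold, beside 23.7% higher and 22.3% lower of all genes. The median log2 fold change of the 6 was 0.88 (3 higher and 0 lower with library size alone, where 45.4% of all genes were higher). Slc16a6, a transporter linked to export of β-hydroxybutyrate from hepatocytes, had 9.06, 10.5 and 7.43 CPM in wild-type BAT and 44.6, 49.9 and 68.0 CPM in Letmd1 KO BAT. Its mean was 6.02-fold higher in Letmd1 KO BAT (log2 fold change 2.59, SE 0.20, adjusted p = 1.96e-05). Emb, a partner protein of these transporters, rose from 1.72 ± 0.68 to 10.4 ± 5.09 CPM (SD, n = 3 each, adjusted p = 0.00107).

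The main importer of ketone bodies, Slc16a1, had 241, 238 and 489 CPM in wild-type BAT and 398, 309.9 and 399 CPM in Letmd1 KO BAT, so wild-type replicate 3 alone stood above the Letmd1 KO mice. Its log2 fold change was 0.19 (adjusted p = 0.577), and without that mouse it was 0.61 (adjusted p = 0.0104). Slc16a7, another importer, was lower (-1.22, adjusted p = 0.0164), a call lost with library size alone (-0.80, adjusted p = 0.0692) and without Letmd1 KO replicate 1 (-0.98, 0.0534) or 3 (-1.19, 0.0523). The Slc16a7 call was also lost without both wild-type replicate 2 and Letmd1 KO replicate 3 (-1.22, adjusted p = 0.102). Bsg, the other partner protein, had -0.43 (adjusted p = 0.0118) and lost its call when scaled by library size (-0.01, adjusted p = 0.938) and under quantile normalization (-0.15, limma, adjusted p = 0.305). Slc16a3 had under 3 CPM in every mouse (log2 fold change 1.57, adjusted p = 0.074; 1.04 without wild-type replicate 1 and 0.77 under quantile normalization) and passed the threshold without wild-type replicate 2 (2.58, adjusted p = 0.023) and with library size alone (1.98, adjusted p = 0.0263).

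Among 5 tested receptors and regulators, 2 were lower and 0 higher, beside 22.3% and 23.7% of all genes. The number lower was 4 with DESeq2 and with the replicate number as a block, and 1 to 3 with 1 mouse left out. Sirt3, a mitochondrial deacetylase, fell from 52.7 ± 5.16 to 25.4 ± 4.12 CPM (SD, n = 3 each, adjusted p = 0.00054). Hcar1, the lactate receptor, was lower (-1.59 on the log2 scale, adjusted p = 0.0182, and -1.36, adjusted p = 0.0779, without Letmd1 KO replicate 1), and had -2.45 (adjusted p = 8.23e-05) without Letmd1 KO replicate 2. Hcar2, the receptor for β-hydroxybutyrate, varied widely within a genotype, with counts of 25, 16 and 52 in wild-type and 11, 98 and 7 in Letmd1 KO BAT, and its sign turned without Letmd1 KO replicate 2 (-2.28, adjusted p = 0.0404). Ppara and Ppargc1a, regulators of fatty acid use, had log2 fold changes of -0.48 and -0.52 (adjusted p = 0.0844 and 0.0906). Both passed the threshold with DESeq2 (adjusted p = 0.037 and 0.0421) and without 1 mouse, Letmd1 KO replicate 3 for Ppara (-0.67, adjusted p = 0.0336) and wild-type replicate 3 for Ppargc1a (-0.68, adjusted p = 0.0467). The values were closer to 0 for Ppara with library size alone (-0.055), under quantile normalization (-0.05) and without Letmd1 KO replicate 2 (-0.25). They were also closer for Ppargc1a with library size alone (-0.098), under quantile normalization (-0.23), without wild-type replicate 1 (-0.26) and without Letmd1 KO replicate 2 (-0.34). Fgf21, a hormone that raises ketone synthesis in liver, had counts of 0, 0 and 3 in wild-type and 18, 6 and 43 in Letmd1 KO BAT and did not pass the filter. It was tested and called higher without a filter (adjusted p = 0.00729), without wild-type replicate 1, 2 or 3 (0.0332, 0.0349 and 0.00459) and without Letmd1 KO replicate 2 (0.0079). With 1 mouse left out, Fgf21 passed the filter through Letmd1 KO mice alone, so that its testing favored a difference in this direction. Ffar3 had 0 counts in all mice.

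The change of Acat1 lay within the range of the neighboring fatty acid oxidation genes, and that of Oxct1 lay outside it. All 15 genes of mitochondrial fatty acid oxidation, the source of acetyl-CoA for ketone synthesis, were lower, with log2 fold changes between -1.84 (Slc25a20, the carnitine carrier) and -1.04 (Acads, the short-chain dehydrogenase) and a median of -1.45, beside -1.58 for Acat1 and 0.14 for Oxct1. Under quantile normalization 14 of the 15 were lower. For every 100 counts of Hadha, the trifunctional protein subunit, there were 19.1, 17.5 and 17.0 counts of Oxct1 in wild-type and 61.7, 60.8 and 72.0 in Letmd1 KO BAT. The log2 ratio of Acat1 to Hadha was -0.70 ± 0.04 in wild-type and -0.55 ± 0.12 in Letmd1 KO BAT (SD, n = 3 each), a narrower gap than that of Oxct1 though also without overlap. Both pairs were chosen after their values were seen. In leucine and isoleucine breakdown, of which the leucine branch yields acetoacetate and the isoleucine branch ends with ACAT1, 7 of 11 genes were lower and 1 higher (median -0.77; 6 lower and 3 higher with library size alone), from Mccc2, a carboxylase subunit of leucine breakdown, at -1.48 to Bcat2, the aminotransferase of the first step, at 0.71. Without both wild-type replicate 2 and Letmd1 KO replicate 3 the call for Bcat2 was lost (0.60, adjusted p = 0.0647). Of 9 genes of iron handling, a process linked to BDH2, 2 were lower and 3 higher (median -0.11), beside 22.3% and 23.7% of all genes. With library size alone 2 were lower and 4 higher (median 0.31). With TMM the changes ran from Aco1, the cytosolic iron regulatory aconitase, at -1.12 to Lcn2, a secreted protein that binds siderophores, at 4.92.

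The genes most like each enzyme across the 6 mice were taken by Pearson's r of log2 CPM among genes with a mean of at least 100 counts, as a description in which all points share libraries and genotype. Acat1 was nearest to Hadhb, Mrpl34 and Mcee (r = 0.999 each), where 20.9% of 8733 genes had an r over 0.9. Oxct1 was nearest to Pdzd8 (0.995), Cbr1 (0.975) and Inpp5k (0.971), and only 0.344% of genes had an r over 0.9 with it. Bdh1 was nearest to Trappc12 (0.993), Arhgap18 (0.993) and Frg1 (0.991), and Bdh2 to Gm1821 (0.995), Atp6v1a (0.994) and Bmp1 (0.986), on counts too low to order genes by.

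**Figure D4:**
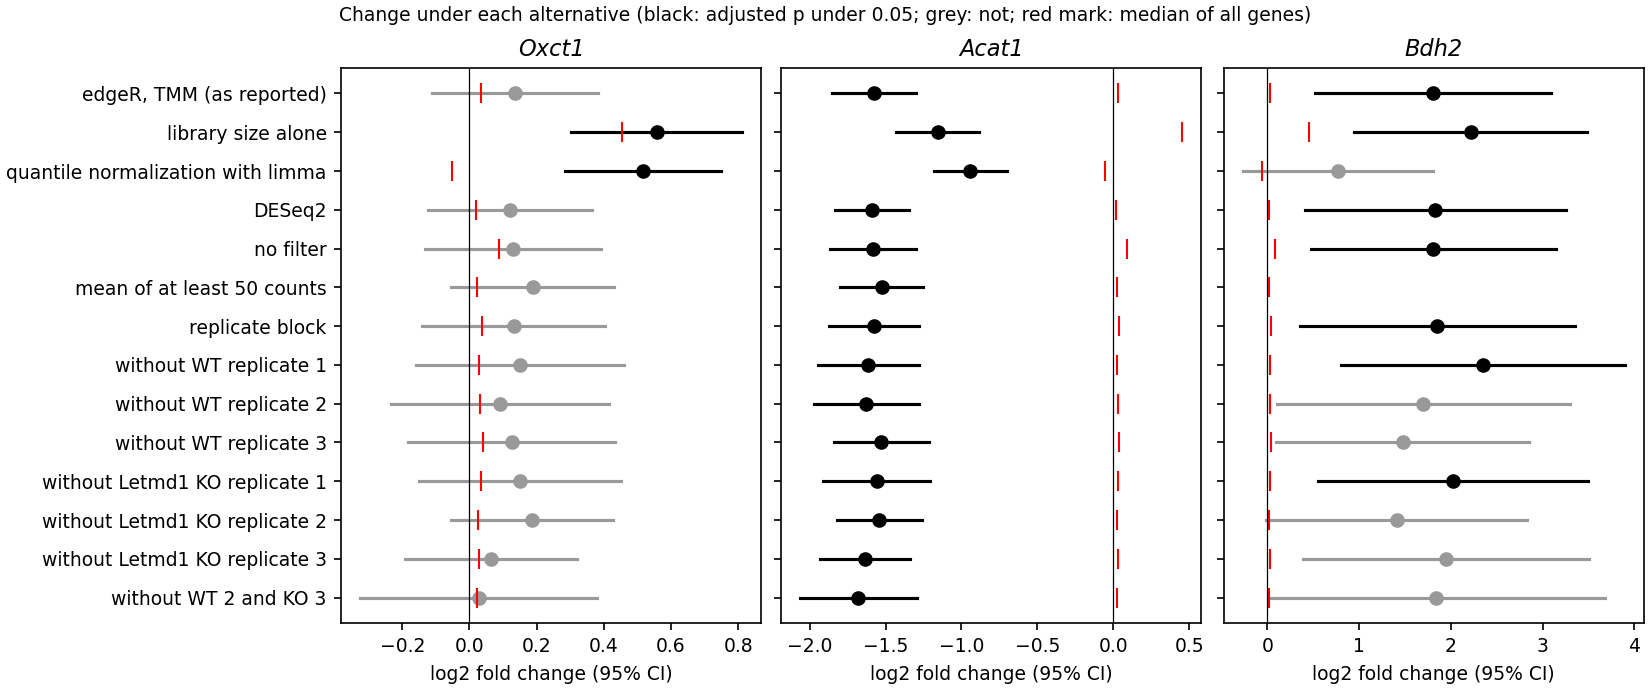
Log2 fold change (x axis, a different range in each panel) with its 95% confidence interval for Oxct1, Acat1 and Bdh2 under TMM scaling and each alternative (y axis), in black where the adjusted p was under 0.05, with the median of all genes in red. Acat1 stays lower in every line, Oxct1 passes the threshold only with library size and quantile normalization, and Bdh2 crosses it with the choice of mice.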

How the data were processed

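QuantSeq 3′ mRNA libraries were sequenced as single-end reads of 75 bases. The authors used Bowtie2 for alignment to mm10 and Bedtools for counting, multiple alignments included, and deposited raw read counts for each mouse. Tool versions, the gene annotation and the use of strand are not given in the sources used here. The methods name quantile normalization, which is not in the deposited counts.

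Counts were analyzed in R 4.3.3 with edgeR 4.0.16 (quasi-likelihood test, TMM, default filterByExpr filter of 10 counts and a total of 15, Benjamini-Hochberg adjustment over 12995 genes, threshold 0.05), limma 3.58.1 and DESeq2 1.42.0. TMM factors lay between 0.852 and 0.886 in wild-type and between 1.13 and 1.17 in Letmd1 KO mice. Log2 CPM used a prior count of 2, and ratios a pseudocount of 0.5. The steps were tested on simulated counts in which few genes changed, as many up as down. Those counts held no shift in RNA composition between the genotypes, so scaling under such a shift was not tested. No pair of mice of 1 genotype agreed within sampling noise (chi-square over its degrees of freedom from 11.5 to 34). Samples were grouped by title. The p-values of edgeR, limma and DESeq2 set the genotype difference against a spread between these mice that is moderated across genes. Floors cover counting error only, while the confidence intervals of fold changes include the spread between mice.

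The 4 genes, the gene lists and the rule for named genes were chosen with earlier results of these data known. Named were all genes of the 4 short ketone lists (by value or count), the extremes of the 3 longer lists and the 3 genes most like each enzyme. Alternatives were library size alone, quantile normalization with limma, DESeq2, no filter, a mean of at least 50 counts, the replicate number as a block, another pseudocount, leaving out each mouse and, added after seeing the data, leaving out 2 mice. Proteins and a promoter of Acat1 were not analyzed here, and some genes of the pathway are not reported here.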

Additional observations from a re-analysis of the deposited data

How the results depend on the processing

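Acat1 kept its direction and call in all 13 alternatives (log2 fold change between -1.68 and -0.94), and Oxct1 passed the threshold in 2 of 13, 0.56 scaled by library size and 0.52 under quantile normalization. Bdh2 kept its call in 6 of 12 alternatives. It was lost under quantile normalization (0.77) and without both wild-type replicate 2 and Letmd1 KO replicate 3 (1.84). Leaving out 1 mouse gave between 1.41 and 2.35. Bdh2 was not tested at a mean of at least 50 counts, and Bdh1 had a fold change without a filter only.

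With library size alone 1368 genes were lower and 5899 higher, so that 81.2% of calls were higher against 51.6% with TMM. The TMM factors, estimated from these counts, differed between the genotypes. A fit without both wild-type replicate 2 and Letmd1 KO replicate 3 had 3889 genes passing (1912 lower, 1977 higher), with fewer mice in it. Signs that turned, each of a gene near or under the threshold, were those of Acat3 with library size alone (0.12), Slc16a1 with 1 mouse left out (between -0.001 and 0.61) or without the 2 mice (-0.055), and Hcar2 under quantile normalization (-1.28) and with 1 mouse left out (between -2.28 and 1.04). The log2 ratio of Bdh1 to Bdh2 differed between the genotypes by 0.23, by -0.32 with a pseudocount of 2, and by between -1.14 and 1.78 with 1 mouse left out. The difference for Oxct1 to Acat1 (1.71) stayed between 1.65 and 1.76 with 1 mouse left out. The cause of these changes in signs and calls was not tested.

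Pairing by replicate number was not seen, as the deviations of same-numbered mice correlated at 0.07, -0.11 and -0.09. With 3 mice per genotype, these values cannot settle whether the numbers pair the mice. With the replicate number as a block, 5599 genes passed against 5978, Acat1 had -1.58, Oxct1 0.13 and Bdh2 1.85 (edgeR, adjusted p = 0.0494), and Hcar2 turned to -0.61. The block lost the call of Acat3 and added those of Ppara and Ppargc1a. Depth limits Bdh1 and Bdh2, at fewer than 50 counts per mouse.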
